A study of Ovis aries with 9 samples.

Results

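The genes described here are those of complement, blood clotting and fibrinolysis, 3 linked systems of plasma proteins that the liver supplies to the blood. They were chosen by name from a list of 40 genes. Rows were found for 38 of them among the 28837 named genes of the count table, made up of 19 complement genes, 11 clotting factors and 8 inhibitors and fibrinolysis genes. F11 and KLKB1, the genes of factor XI and plasma prekallikrein, are not analysed here.

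Complement is a cascade of proteases and binding proteins that tags microbes and damaged cells and can open pores in their membranes. Clotting factors pass a signal from one protease to the next until thrombin turns soluble fibrinogen into fibrin, and several of them need a modification of glutamate residues that depends on vitamin K. Inhibitors in plasma hold both cascades in check, and plasmin, made from plasminogen, dissolves fibrin again. Hepatocytes are the main source of most of these proteins, and many of the genes are known to answer to inflammatory signals.

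Hepatocytes of female sheep (Ovis aries) were picked by hand from digested liver, and each cell was sequenced as its own Smart-seq3xpress library, a protocol that amplifies the RNA of single cells in the wells of a plate. There was 1 sample for each of 9 stages. The virgin group was 1 sample, the gestation group was 6 samples that covered gestational days 40 to 50, 50 to 70, 70 to 80, 90 to 100, 100 to 120 and 140 to 150, and the lactation group was 2 samples taken on days 7 and 15 after birth. No genotype, breed, treatment or animal age is given for any group. The labels name no separate animals. The p-values therefore rest on the spread from one stage to another, which may be technical. Reads were summed over the 246 to 553 cells of a sample, 114865665 to 272944124 reads in all, and levels are given as CPM, read counts brought to a common library size with the trimmed mean of M values (TMM) of edgeR. In such sums, fewer expressing cells and less RNA per cell cannot be told apart, and levels in single cells are given further on.

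Hepatocyte markers were plentiful in each of the 9 samples, with 9 of 10 listed markers found and a summed level of 63165 to 184310 CPM. ALB, the albumin gene, stood at 80629 CPM in the virgin sample, between 91398 and 113350 CPM in gestation, at 48042 CPM on lactation day 7 and at 32003 CPM on day 15. Markers of other liver and blood cells were near 0. Endothelial markers summed to at most 13.4 CPM (7 of 8 found), macrophage markers to 42.8 (7 of 9), stellate markers to 25.2 (8 of 8), cholangiocyte markers to 3.02 (5 of 6), lymphocyte markers to 27.3 (7 of 7), neutrophil markers to 12.9 (4 of 5) and platelet markers to 7.51 (5 of 6). Red cell markers reached 224 CPM on lactation day 7, of which HBB, a haemoglobin chain, made 222 CPM.

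Cells that follow each other in the table's numbering shared their levels within several stages. The labels do not say whether this numbering follows animals, plates or days. To show it, the cells of each stage were divided into runs of 40 consecutive numbers, 81 runs in all, a division chosen after the data had been seen. At gestational days 140 to 150 the last cells stood apart. In the 10 runs of cells 1 to 400, FGB, the fibrinogen beta chain, lay between 12469 and 22739 CPM, and in cells 401 to 440 and 441 to 492 it stood at 36515 and 38397 CPM. MBL2, mannose-binding lectin, which starts complement on microbial sugars, lay between 811 and 1253 CPM in the first 10 runs and at 315 and 137 CPM in the last ones. Of 36 members with at least 50 CPM on average, FGA, FGB, FGG and F5 were above every earlier run in both of these late runs (20.1% of all 2064 genes at that level) and 25 were below every earlier run (34.4%). Albumin fell outside its earlier range too, at 47231 and 26943 CPM against 96374 to 122650 CPM. ORM1, an acute-phase glycoprotein of plasma named here after its values were seen, stood at 29443 and 39468 CPM in these late runs against 18.4 to 91.6 CPM before. A second case was C3 at gestational days 100 to 120, with 3445 to 5503 CPM in cells 1 to 200 and 1520, 1590 and 2322 CPM in the later runs. What sets these cells apart was not tested. Levels are stage sums unless stated otherwise, and the class sums, the levels of VTN and fibrinogen and the steps between single stages are also given with the median over runs. The late cells lower many members' sums at days 140 to 150: MBL2 had 804 CPM as a sum and 940 CPM as a run median, and KNG1, the kininogen gene, 1241 and 1354 CPM.

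**Figure D1:**
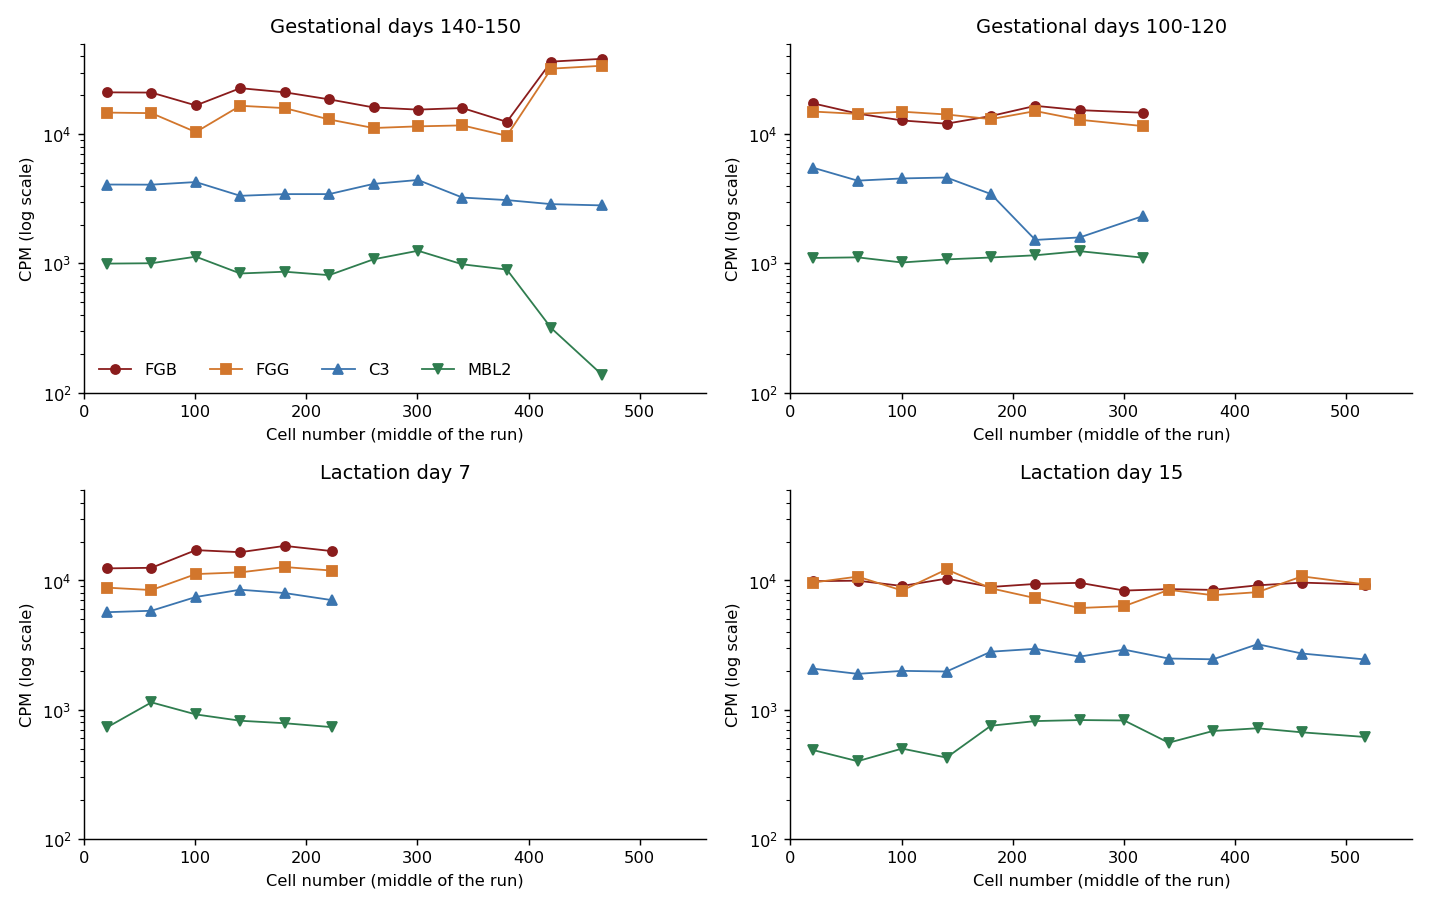
Levels of FGB, FGG, C3 and MBL2 (CPM, log axis) in runs of 40 consecutive cell numbers, plotted at the middle cell number of each run, in 4 of the stages. At gestational days 140 to 150 the last 2 runs carry FGB at 36515 and 38397 CPM and MBL2 at 315 and 137 CPM, and at days 100 to 120 C3 is lower from cell 201 on.

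Fibrinogen dominated these transcripts. Its 3 chains made 85.0 to 92.8% of clotting-factor CPM and 42.5 to 61.1% of the CPM of all 38 members, and the members together took 5.05 to 7.99% of a sample's reads. Per kilobase of the gene length in the table, FGB had the highest mean level over the 9 samples at 8446 ± 2305 CPM per kb (SD, n = 9), followed by FGG at 5866 ± 1689. Antithrombin (SERPINC1), the main inhibitor of thrombin, came next at 1812 ± 329 CPM per kb. VTN, FGA and C1R followed at 1147 ± 312, 1096 ± 261 and 1044 ± 307. Their ranges over the 9 samples overlap, and their order was not tested. At the lower end, MASP2 and MASP1, proteases of the lectin pathway, stood at 26.8 ± 6.18 and 19.1 ± 2.91 CPM per kb and PROZ, the protein Z gene, at 3.17 ± 0.655. C7, a link of the membrane pore, was close to absent at 0.134 ± 0.198 CPM per kb. Reads of neighbouring genes may be shared between them where the genes overlap, since it is not stated whether reads were counted by strand. In RefSeq's gene order, no gene lies between C2 and CFB, C8A and C8B, FGA and FGB, FGA and FGG, F7 and F10, or F10 and PROZ.

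The 3 classes did not follow one course over the stages. Summed complement CPM was 18715 in the virgin sample, ran from 18055 to 23953 in gestation with a median of 21981, and stood at 27907 on lactation day 7 and 15539 on day 15, so the 2 lactation samples held both the highest and the lowest value. Summed clotting-factor CPM was 48789 in the virgin sample, 24723 to 52371 in gestation with a median of 38445, 37722 on lactation day 7 and 24787 on day 15. The gestation minimum lay at days 70 to 80 and the maximum at days 140 to 150. Inhibitors and fibrinolysis genes summed to 6611 CPM in the virgin sample, to 6706 to 9253 in gestation with a median of 7725 and a maximum at days 40 to 50, and to 7926 and 5379 CPM on lactation days 7 and 15. Gestation and lactation overlap in each of the 3 classes, and the virgin sample lies below all 6 gestation samples in the inhibitors and fibrinolysis genes alone. The place of days 140 to 150 above the virgin sample in clotting factors rests on cells 401 to 492. Without them the stage had 42687 CPM, still above the next gestation sum, 41199 CPM at days 40 to 50. The median over its runs was 44887 CPM, below the 52883 CPM of the virgin sample's run median. The minimum at days 70 to 80 was also seen as a run median of 20622 CPM, below the 24416 CPM of lactation day 15.

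**Figure D2:**
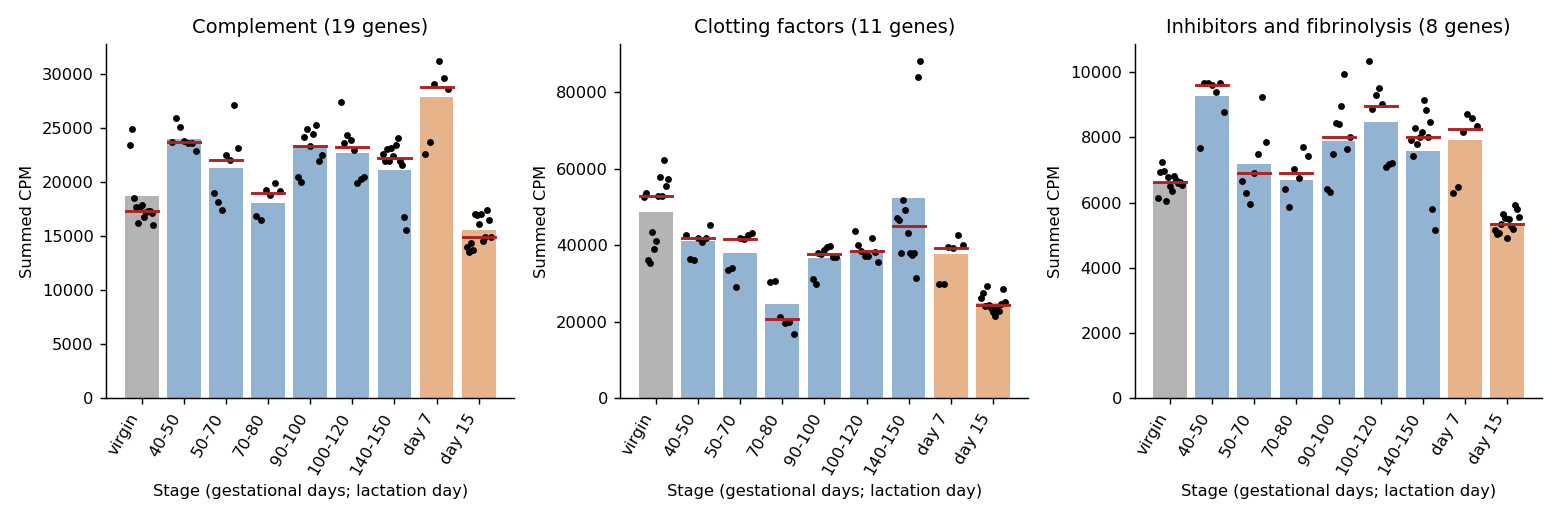
Summed CPM of complement genes, clotting factors, and inhibitors with fibrinolysis genes in each stage (bars, 1 sample each; grey virgin, blue gestation, orange lactation), with the runs of 40 cells as points and their median as a red line. Complement is highest on lactation day 7 (27907 CPM) and lowest on day 15 (15539 CPM), and 2 of the 12 runs at days 140 to 150 carry 84027 and 88209 CPM of clotting factors.

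Taken gene by gene, the spread over all 9 stages was close to that of all genes with at least 50 CPM on average. The highest stage was a median 1.89 times the lowest in the 36 members with at least 50 CPM on average, against 1.84 times in all 2064 such genes, and 1.95 against 1.90 times with run medians. This rests on lactation day 15: without it the members had 1.62 times and all such genes 1.77 times. In the gestation samples only, these were 1.45 and 1.58 times. C3 had the widest range at 2.86-fold and F13B, the carrier subunit of factor XIII, the narrowest at 1.29-fold. The stages at which members were lowest were unevenly shared. Lactation day 15 was the lowest stage of 22 of 36 members (10.8% of all genes at that level), gestational days 70 to 80 of 9 (13.2%), the virgin sample of 4 (19.04%) and days 140 to 150 of 1 (12.8%). With run medians day 15 was the lowest stage of 20 members (11.2%). The highest stage was at days 90 to 100 for 10 members (10.2% of all genes), on lactation day 7 for 9 (6.88%), at days 40 to 50 for 7 (13.2%) and at days 140 to 150 for 6 (7.70%).

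**Figure D3:**
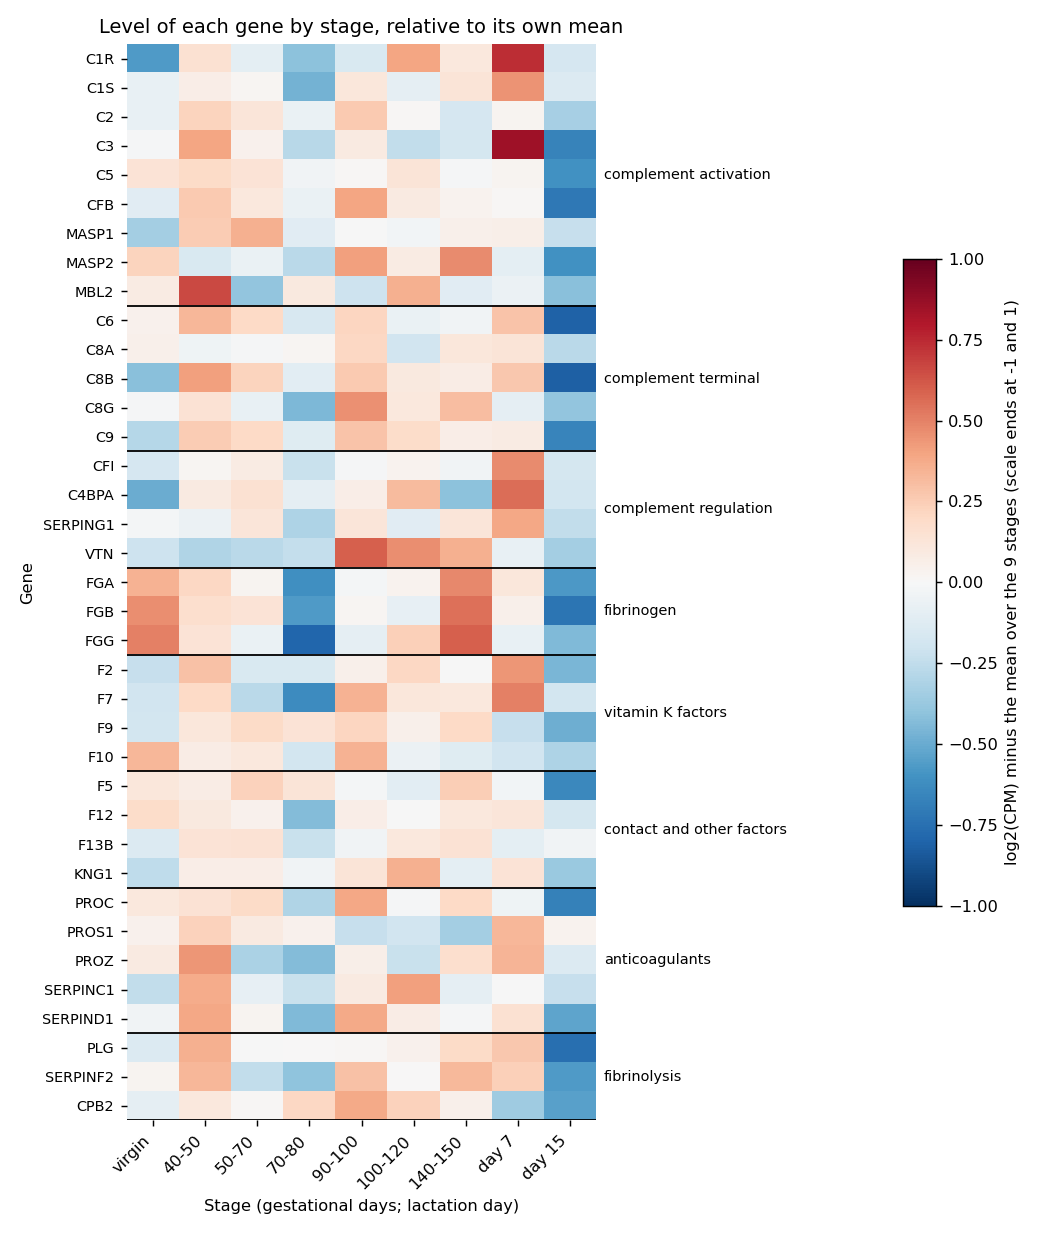
log2(CPM) of 37 members in each stage minus the gene's mean over the 9 stages, with members in their roles (C7, near 0, is left out). Lactation day 15 is the lowest stage of 22 of the 36 members with at least 50 CPM on average, and FGA, FGB and FGG share their low stage at days 70 to 80 and their high values in the virgin sample and at days 140 to 150.

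Among the genes that activate complement, C3 is the protein on which all pathways converge. C3 measured 3989 CPM in the virgin sample, 3306 to 5288 CPM in gestation with a median of 3844, 7218 CPM on lactation day 7 and 2526 CPM on day 15. The lactation values thus lie on either side of the entire gestation range. C1R, a protease of the classical pathway's first complex, measured 1996 CPM in the virgin sample, 2223 to 3874 in gestation with a median of 2969, and 4913 and 2623 CPM on lactation days 7 and 15. The virgin sample was the lowest of the 9 for this gene and day 7 the highest. CFB, factor B of the alternative pathway, measured 1602 CPM in the virgin sample, 1653 to 2276 in gestation with a median of 1859, and 1749 and 1054 CPM in lactation. Day 15 stands below all other samples, while day 7 lies within the gestation range.

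The lectin pathway's proteases were lower and moved apart from one another. MASP2, which cleaves C4 and C2, measured 110 CPM in the virgin sample, 78.0 to 131 CPM in gestation with a median of 94.7, and 87.8 and 61.8 CPM on lactation days 7 and 15. Its 3 gestation samples up to day 80 lay at 78.0 to 89.9 CPM and the 3 later ones at 99.4 to 131 CPM. MASP1, its partner protease, measured 82.4 CPM in the virgin sample, 96.7 to 134 CPM in gestation with a median of 106, and 109 and 88.8 CPM in lactation. All 6 gestation samples lay above the virgin sample, and lactation overlapped gestation. The remaining activators, C1S, C2, C5 and MBL2, had gestation medians of 1093, 654, 1138 and 868 CPM and their lowest values at days 70 to 80 (C1S) or on lactation day 15.

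The terminal genes encode the membrane pore. C9, which polymerises into the pore, measured 1457 CPM in the virgin sample, 1633 to 2161 in gestation with a median of 2029, and 1877 and 1125 CPM in lactation. C8B, a chain of C8, measured 368 CPM in the virgin sample, 456 to 653 in gestation with a median of 551, and 591 and 279 CPM in lactation. For both genes every gestation sample was above the virgin sample, day 7 was within the gestation range and day 15 was the lowest sample of all. C6, C8A and C8G had gestation medians of 451, 432 and 178 CPM. C7 was listed at 0 reads on lactation day 7 and at 0.0627 to 0.915 CPM elsewhere, except for 2.28 CPM at days 70 to 80, where 1 cell held 45.4% of its reads.

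Among the regulators, vitronectin (VTN), which keeps the pore from inserting into membranes, split gestation in 2. VTN measured 1457, 1487 and 1522 CPM in the 3 samples up to day 80, then 2709, 2475 and 2297 CPM at days 90 to 100, 100 to 120 and 140 to 150. The virgin sample had 1553 CPM and lactation days 7 and 15 had 1698 and 1418 CPM. The 3 late gestation samples stand above all other samples, also with run medians, which were 1344 to 1545 CPM up to day 80 and 2338 to 2494 CPM later. Single runs overlapped, however. Those of earlier stages reached 2311 CPM, and the lowest run at days 140 to 150 had 1567.5 CPM. C4BPA, the alpha chain of the C4b-binding protein, which helps to inactivate C4b, measured 724 CPM in the virgin sample, 770 to 1277 in gestation with a median of 1079, and 1506 and 900 CPM in lactation. The virgin sample was its lowest and day 7 its highest. CFI, the protease that cleaves C3b, and SERPING1, the C1 inhibitor, also had their highest sample on day 7, at 1629 and 1362 CPM.

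The fibrinogen chains moved together over the stages. FGB measured 21398 CPM in the virgin sample, 10485 to 22721 in gestation with a median of 16356, and 16059 and 9328 CPM on lactation days 7 and 15. FGG, the gamma chain, measured 16491 CPM in the virgin sample, 6732 to 17604 in gestation with a median of 11964, and 11056 and 8582 CPM in lactation. FGA, the alpha chain, was lowest at days 70 to 80 (3793 CPM) and highest at days 140 to 150 (8093 CPM). Each chain was high in the virgin sample and at days 140 to 150 and low at days 70 to 80 and on lactation day 15. Without cells 401 to 492, days 140 to 150 had 18491 CPM of FGB and 13172 CPM of FGG, both below the virgin sample. At days 70 to 80 FGB reached 14431 CPM in cells 41 to 80 and 5876 CPM in cells 201 to 253.

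The factors that depend on vitamin K were far less abundant. Prothrombin (F2), the precursor of thrombin, measured 961 CPM in the virgin sample, 1016 to 1384 in gestation with a median of 1148, and 1531 and 821 CPM on lactation days 7 and 15. As with C3, lactation held its highest and its lowest sample. F9, the gene of factor IX, measured 433 CPM in the virgin sample, 510 to 570 in gestation with a median of 551, and 418 and 350 CPM in lactation. Each gestation sample lay above the other 3 samples. F10, the gene of factor X, measured 309 CPM in the virgin sample, 216 to 314 in gestation with a median of 248, and 216 and 199 CPM in lactation. F7, whose protein starts clotting with tissue factor, was lowest at days 70 to 80 (41.5 CPM) and highest on lactation day 7 (90.6 CPM).

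In the group of contact and other factors, kininogen (KNG1), which carries bradykinin, was the most abundant. KNG1 measured 1119 CPM in the virgin sample, 1241 to 1704 in gestation with a median of 1394, and 1466 and 1028 CPM in lactation. F5, the cofactor of factor X, measured 278 CPM in the virgin sample, 239 to 304 in gestation with a median of 276, and 252 and 165 CPM in lactation. For F5 only the day 15 sample lay outside the range of the rest. F12, the contact factor XII, had 54.0 CPM at days 70 to 80 and 72.8 to 78.2 CPM in the other gestation samples.

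Of the anticoagulants, SERPINC1 measured 2645 CPM in the virgin sample, 2676 to 4169 in gestation with a median of 3146, and 3128 and 2671 CPM in lactation. Gestation and lactation overlap, and the virgin sample was the lowest of the 9 by a small margin. PROC, the gene of protein C, which inactivates factors V and VIII, measured 390 CPM in the virgin sample, 294 to 472 in gestation with a median of 407, and 352 and 226 CPM in lactation. PROS1, protein C's cofactor protein S, measured 282 CPM in the virgin sample and 345 and 281 CPM in lactation. In gestation PROS1 had 321, 291 and 282 CPM in the samples up to day 80 and 233, 240 and 216 CPM in the later ones, the reverse of the order seen in VTN and MASP2. SERPIND1, heparin cofactor II, ran from 266 CPM on lactation day 15 to 503 CPM at days 40 to 50.

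Fibrinolysis was represented by plasminogen and 2 of its brakes. PLG measured 2370 CPM in the virgin sample, 2601 to 3339 in gestation with a median of 2657, and 3136 and 1547 CPM on lactation days 7 and 15, where day 15 was the lowest sample of all. CPB2, a carboxypeptidase that protects fibrin from plasmin, measured 305 CPM in the virgin sample, 327 to 422 in gestation with a median of 362, and 254 and 223 CPM in lactation. All 6 gestation samples of CPB2 were above the other 3 samples. For such orders that include the virgin sample, also described for F9, MASP1, C9 and C8B, the share over all genes was not counted. SERPINF2, the plasmin inhibitor, ran from 158 CPM on lactation day 15 to 293 CPM at days 40 to 50.

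Between gestation and lactation no member changed by the test that was set. CPB2 and F9 were nearest to it, both with higher levels in gestation. Of 38 members tested, 0 passed an adjusted p of 0.05 in edgeR's quasi-likelihood test, in which 12 of 20263 genes did (0.0592%), 6 of them higher (0.0296%) and 6 lower (0.0296%). At an unadjusted p under 0.05 there were 2 members, CPB2 and F9, a smaller share than the 9.4% of all genes. DESeq2 called both of them, but it called 523 of the 20263 genes, against 12 by edgeR. With equal weight per cell, limma called 0 members and 39 genes in all. For CPB2 the mean was 365 ± 35.2 CPM in gestation (SD, n = 6) and 239 ± 22.5 CPM in lactation (SD, n = 2). Its log2 fold change was 0.61 ± 0.17 (SE; edgeR adjusted p = 0.27, DESeq2 adjusted p = 0.0156). For F9 the means were 546 ± 23.4 and 384 ± 48.0 CPM, and the log2 fold change was 0.51 ± 0.16 (SE; edgeR adjusted p = 0.348, DESeq2 adjusted p = 0.0244). F5 (0.40 ± 0.20), PROC (0.44 ± 0.23), CFB (0.45 ± 0.24) and MASP2 (0.44 ± 0.24) followed, with edgeR adjusted p of 0.576, 0.596, 0.601 and 0.616. These 4 estimates rested on lactation day 15: without it they were 0.12, 0.16, 0.13 and 0.20, and without day 7 they were 0.74, 0.80, 0.86 and 0.71.

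Every gestation sample was above both lactation samples in 3 members, CPB2, F9 and F10 (4.86% of all genes), and below both in 0 (6.14%). For F10 the margin, 216.28 against 215.82 CPM, is within the counting intervals, and with run medians the order was reversed, at 219 CPM on days 70 to 80 and 225 CPM on lactation day 7. The median log2 fold change of the 38 members was 0.25 and 28 of them were above 0, beside a median of 0.01 and 51% above 0 over all genes. This lean rested on lactation day 15: without that sample 19 members were above 0 and the median was -0.015, and without day 7 they were 36 and 0.50. Scaling by library size alone shifted the median of all genes to -0.18, and then 22 members were above 0 with a median of 0.051. By role, 6 of 6 terminal complement genes (with C7, which is near 0 CPM) and 3 of 3 fibrinogen chains were above 0. So were 4 of 4 contact and other factors and 3 of 3 fibrinolysis genes, while 3 of 4 complement regulators were below it. The lowest estimate was 0.079 among the terminal genes and 0.015 among the contact and other factors. These counts by role were not made without day 15. In the fit's simulated data 26.9% of genes changed by a log2 of 1 were recovered, so changes of that size could be missed in this design. A change of the size of CPB2's was not simulated.

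**Figure D4:**
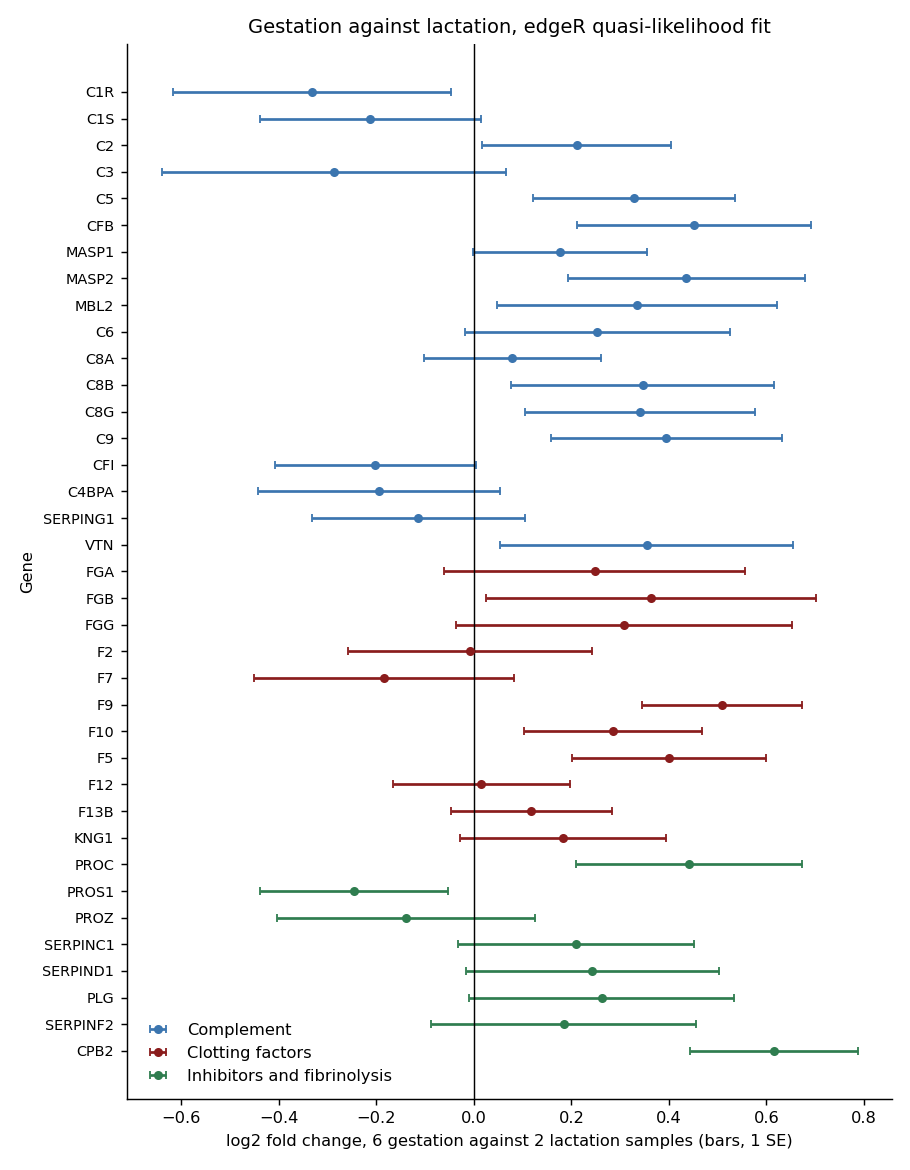
log2 fold change of 37 members between the 6 gestation and the 2 lactation samples (points, edgeR quasi-likelihood fit; bars, 1 SE; C7 is left out). CPB2 at 0.61 and F9 at 0.51 lie farthest above 0 and C1R at -0.33 farthest below it, and none passed an adjusted p of 0.05.

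Against the single virgin sample, most complement genes had a higher estimate in gestation and the 3 fibrinogen chains a lower one, and none passed the test. By edgeR 0 of 38 members passed the adjusted threshold (0.00494% of genes, 1 of 20263) and 0 had an unadjusted p under 0.05 (4.45%), and DESeq2 and limma called 0. The smallest p values belonged to MASP1 (log2 fold change 0.44 ± 0.24, SE), C8B (0.59 ± 0.37), C4BPA (0.54 ± 0.35), F9 (0.33 ± 0.22), C1R (0.58 ± 0.40) and C9 (0.44 ± 0.32), each with an edgeR adjusted p of 1. Of complement genes 16 of 19 were above 0 and of clotting factors 5 of 11, with 27 of 38 members in all (54.8% of all genes). With library size alone 18 of 38 were above 0, and with equal weight per cell 16. The virgin group has 1 sample, which is assumed to vary like the other groups.

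Lactation against virgin gave the same absence of calls. By edgeR 0 of 38 members passed the adjusted threshold and so did 0% of 20263 genes, 0 members had an unadjusted p under 0.05 (4.94%), and DESeq2, with 1 member under that level, and limma, with 2, called 0. F10 (log2 fold change -0.58 ± 0.26, SE), MASP2 (-0.55 ± 0.35), FGB (-0.75 ± 0.49) and FGG (-0.75 ± 0.50) were lower in lactation, and C1R (0.92 ± 0.45) and C4BPA (0.73 ± 0.39) higher, each with an edgeR adjusted p of 0.965. Above 0 were 18 of 38 members (53.4% of all genes), 7 without day 7 and 24 without day 15. Without day 7 the log2 fold changes were -1.20 for FGB, -0.94 for FGG, -0.82 for MASP2, 0.40 for C1R and 0.32 for C4BPA. Without day 15 they were -0.41, -0.57, -0.32, 1.30 and 1.06 in the same order.

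Over the 6 gestation samples a slope on the middle day of each range was fitted per 100 days. PROS1, MASP2 and VTN had the steepest slopes for their error, downward for PROS1 and upward for the other 2. By edgeR 0 of 38 members passed the adjusted threshold (0.0336% of genes, 6 of 17848, with 4 rising, 0.0224%, and 2 falling, 0.0112%), and DESeq2 and limma called 0. An unadjusted p under 0.05 was found for 3 members, beside 6.62% of all genes. The slope of PROS1 was -0.58 ± 0.22 (log2 per 100 days, SE; edgeR adjusted p = 0.702). The slope of MASP2 was 0.66 ± 0.27 (edgeR adjusted p = 0.731) and that of VTN 0.90 ± 0.38 (edgeR adjusted p = 0.739). FGG (0.63 ± 0.44) and C3 (-0.46 ± 0.32) had an edgeR adjusted p of 0.932. Without days 140 to 150 the slope was 0.15 for FGG, -0.71 for C3 and 1.498 for VTN. Without days 40 to 50 it was 1.11 for FGG and -0.18 for C3. No slope is given for C7, which is near 0 in most samples.

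Across birth, from gestational days 140 to 150 to lactation day 7, the complement sum was higher and the fibrinogen sum lower. The complement difference lay mostly in C3, C1R, C4BPA and CFI, while CFB, MASP1, C9, C8A and C5 had ratios of 0.987 to 1.03 and MASP2, VTN and C8G were lower, at 0.672, 0.739 and 0.761 times. These single steps have 1 sample on each side and no replicate check, so they are described with no test. The 4 of 36 members at least 1.5-fold higher on day 7 (8.77% of 2064 genes) were C3 at 3546 and then 7218 CPM, C4BPA at 770 and 1506, PROS1 at 216 and 345, and C1R at 3175 and 4913 CPM. FGG was 0.628 times its earlier level, the 1 member at least 1.5-fold lower (12.1%), with FGB at 0.707 times. Both counts are close to or below the share over all genes. With run medians C1R measured 3472 and 4860 CPM and was no longer 1.5-fold higher, the 4 members so far apart were C3, C4BPA, PROS1 and CFI (9.01%), and 0 were 1.5-fold lower (11.97%). Every day 7 run was above every run of days 140 to 150 in 2 of 36 members, C3 and C4BPA (4.36% of all genes). This count too is close to the share over all genes. The runs had 5681 to 8482 CPM against 2813 to 4426 CPM for C3. For C4BPA they had 1117 to 1680 CPM against 491 to 966 CPM. The fibrinogen step depends on the late runs: with run medians FGG measured 13795 CPM before birth and 11384 CPM on day 7, and FGB 19828 and 16709 CPM.

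From lactation day 7 to day 15 the members were lower almost throughout. Of 36 members 35 had a lower level on day 15, while 31.3% of all 2064 genes did, and the median ratio was 0.651. Those at least 1.5-fold lower numbered 20 of 36 (7.75% of genes), and 0 were at least 1.5-fold higher (17%). With run medians these were 23 (9.45%) and 0 (18.2%). C3 was lower from 7218 to 2526 CPM, PLG from 3136 to 1547, C6 from 517 to 243, C8B from 591 to 279, C1R from 4913 to 2623 and F2 from 1531 to 821 CPM. F13B, at 289 and 302 CPM, was the exception. In 13 members the lowest run of day 7 was above the highest run of day 15 (4.41% of genes), among them C3, C1R, C4BPA, CFB, C8B, F2, FGA, FGB and PLG, and 0 lay the other way (7.99%). Albumin was lower as well in this step, from 48042 to 32003 CPM, red cell markers summed to 224 and 2.54 CPM, and ORM1 stood at 9781 and 115 CPM. Their part in the result was not tested. Set beside days 140 to 150, day 15 had 17 of 36 members at least 1.5-fold lower (12% of genes) and 0 higher (14.6%).

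The other genes of these pathways gave no calls either. Of 24 further complement genes 19 were tested between gestation and lactation and 0 were called by edgeR. Of these, 3 were above 0 and 16 below (51% of all genes above 0), which was not recounted with a sample left out. The list holds genes near 0 CPM. CD55, a membrane inhibitor, had the smallest p at levels of 0.0161 to 1.31 CPM, followed by VSIG4, a complement receptor, at 0.00803 to 0.841 CPM. Of 29 further clotting genes 28 were tested and 0 called, and ANXA2, a cell-surface receptor of plasminogen, had 48.6 to 96.7 CPM in gestation, 152 CPM in the virgin sample and 114 and 175 CPM in lactation (edgeR adjusted p = 0.317). Of 8 genes around the vitamin K cycle 7 were tested and 0 called. VKORC1L1, a vitamin K epoxide reductase, had 65.0 to 91.7 CPM in gestation and 125 and 104 CPM in lactation (edgeR adjusted p = 0.336). NQO1, a quinone reductase, had 8.86 to 21.2 CPM in gestation, 15.1 CPM on day 7 and 91.1 CPM on day 15 (edgeR adjusted p = 0.314). Of 16 interleukin-6 signalling and liver transcription factor genes 0 were called, and FOXA2, a liver transcription factor, had 8.21 CPM in the virgin sample, 10.7 to 25.3 in gestation, and 36.5 and 19.7 CPM in lactation. Along gestation CEBPB, an inflammation-responsive transcription factor, had 28.9 to 39.3 CPM up to day 80 and 57.5 to 79.5 CPM later (edgeR adjusted p = 0.396).

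In single cells most members were found nearly everywhere. To compare cells at 1 depth, each cell was thinned to 155164 reads, which kept 3063 of 3404 cells. At that depth 32 of the 38 members had a read in over 99% of cells in every stage, and MASP1, MASP2, F7 and F12 in 94.1 to 99.3%. PROZ was found in 37.1 to 56.3% of cells and C7 in 0 to 5.16%. In 225 cells of lactation day 7, C7 had a read in 0, which allows a share of up to 1.63% (upper exact 95% bound, for counting error only, since reads are not independent molecules). Complement took a median 3.00% of a cell's reads on lactation day 7 (10th to 90th percentile of cells 2.33 to 3.66%) and 1.68% on day 15 (1.32 to 2.09%), so the spans of the central cells do not overlap. Clotting factors took a median 4.09% at days 140 to 150, with a 90th percentile of 7.55%, and 2.20% at days 70 to 80. C3 at days 100 to 120 was widely spread, with a 10th percentile of 831 CPM and a 90th of 5376 CPM.

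The levels of the 3 fibrinogen genes varied together from cell to cell. Spearman's rho was 0.666 to 0.923 for FGA with FGG, 0.602 to 0.920 for FGA with FGB and 0.613 to 0.911 for FGB with FGG over the 9 stages, each over 213 to 495 cells. With levels centred within runs of 40 cells these were 0.694 to 0.931, 0.615 to 0.916 and 0.611 to 0.903. The cells of a stage share a sample and a depth, and the FGA gene directly neighbours both other genes. Over all 630 pairs of 36 members the median rho within runs was 0.057 to 0.121 by stage. Outside fibrinogen the closest pair was C1R with F2, at a median rho of 0.580, or 0.500 within runs.

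Along the lobule, the liver's repeating unit between portal and central veins, a score of 7 periportal marker genes minus 6 pericentral ones was set beside each member. C4BPA lay towards the pericentral end in 9 of 9 stages, with a rho of -0.614 to -0.281 (within runs -0.606 to -0.354), and CFI followed at -0.453 to -0.015 (within runs -0.443 to -0.109). C6 lay towards the periportal end in 9 of 9 stages at 0.125 to 0.495 (within runs 0.300 to 0.504), with C5 at 0.035 to 0.215 (within runs 0.066 to 0.330). Components of 1 cascade thus leaned to opposite sides of this score, only weakly in some stages for CFI and C5. Fibrinogen's position varied with the stage. FGG had a rho within runs of -0.404 in the virgin sample, -0.438 at days 40 to 50 and -0.209 at days 50 to 70, and of -0.095 to 0.093 in the 6 later samples. These correlations are descriptions over cells of 1 sample each.

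**Figure D5:**
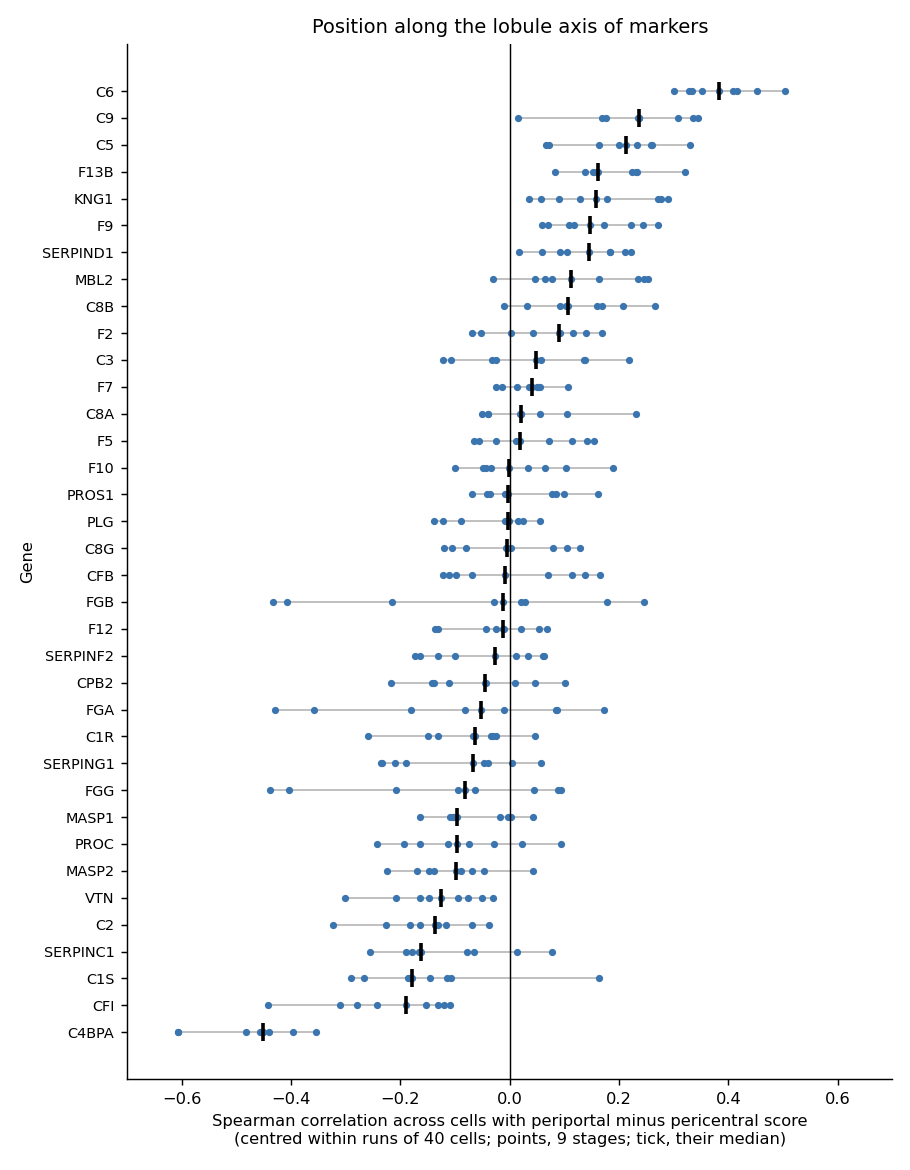
Spearman's rho across cells between each of 36 members and the periportal minus pericentral marker score, centred within runs of 40 cells (points, 9 stages; tick, their median). C4BPA lies farthest towards the pericentral side (-0.606 to -0.354) and C6 farthest towards the periportal side (0.300 to 0.504), and FGA, FGB and FGG spread across 0.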

How the data were processed

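The authors deposited a table of whole-number read counts per gene and cell, with no normalization. The submitters' processing notes list featureCounts 2.0.1, HISAT2 2.1.0 and Trimmomatic 0.39. For the genome build, the strand setting and any collapsing of molecular identifiers, the sources used here give nothing, so the values are treated as read counts. Cells were assigned to stages by their column names. The 24 rows that name no gene held 0.474% of reads and were left out. Gene names and neighbours, and no coordinates, come from RefSeq's genes for ARS-UI_Ramb_v3.0.

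Counts were summed per stage, 114865665 to 272944124 reads per sample. edgeR 4.0.16 in R 4.3.3 fitted all genes (filterByExpr, TMM, quasi-likelihood test, p adjusted by Benjamini and Hochberg, called under 0.05) with each group as a term over 9 samples, and a slope over the 6 gestation samples. A standard error is the size of the log2 fold change over the square root of F. Alternatives were DESeq2 1.42.0, limma 3.58.1 with equal weight per cell, library size alone, no filter, leaving out each sample and, chosen after seeing the data, the median of log2(CPM + 1) over runs of 40 cells. The remainder of a stage joined its last run, so that runs held 40 to 76 cells. On simulated counts 26.9%, 100% and 100% of genes changed by a log2 of 1, 2 and 3 were recovered between gestation and lactation, and 4.48%, 56.7% and 95.5% for the slope. Python 3.11.15, pandas 2.3.3, numpy 2.4.6, SciPy 1.17.1 and matplotlib 3.10.9 were used.

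Members with an adjusted p under 0.05, the 6 with the smallest p in each comparison and the most abundant of each role are given in every sample. Members and lists were chosen with earlier results of these data known. Doublets were not called, and the sums hold all 3404 cells.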

Additional observations from a re-analysis of the deposited data

Results flagged for a closer look

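Of 41 gestation groups of 6 samples, among them the single members, 2 had 1 sample far from the rest by Dixon's criterion. Chance alone reaches this in about 1 of 20 groups. C7 measured 2.279 CPM at days 70 to 80, and 0.0627 to 0.379 CPM in the other 5 gestation samples. F12 measured 54.04 CPM at days 70 to 80, and 72.8 to 78.2 CPM in the others.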

How the results depend on the processing

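Values of single members were recomputed for 24 pairs of a member and a comparison, the 6 with the smallest p in each comparison. Of these 306 values, 304 kept direction and side of the threshold, 2 passed it (CPB2 and F9 under DESeq2) and 0 reversed. Pairs chosen by a small p are the least apt to reverse, so this says little about the other members. Over all 38 members, 28 were above 0 between gestation and lactation, and 22 with library size only. Between gestation and virgin 27 were above 0, and 16 with equal weight per cell. Under DESeq2 the members called between gestation and lactation were 2, and 0 in each other comparison. The number of all genes called moved most. Between gestation and lactation it was 12, against 22 with library size only, 21 with no filter, 523 by DESeq2, 39 by limma with equal weight per cell, 45 with run medians, and 1 to 45 with 1 sample left out. Between gestation and virgin it was 1, against 5 with no filter, 114 by DESeq2, 88 with equal weight, 159 with run medians and 1 to 2 with 1 sample left out. Between lactation and virgin it was 0, against 96, 42 and 155 by DESeq2, equal weight and run medians, and 0 to 1 with 1 sample left out. For the slope it was 6, against 17 with no filter, 303 by DESeq2, 2 with equal weight, 0 with run medians and 0 to 9 with 1 sample left out. The members' median moved with library size only to 0.051 (gestation and lactation) and -0.024 (gestation and virgin), and with equal weight to 0.067 and -0.033. With 1 sample left out it ran from -0.015 to 0.50, for lactation and virgin from -0.37 to 0.16, and for the slope from -0.058 to 0.14. With library size only, day 7 over days 140 to 150 was 1.48 for complement, against 1.32, and 1.17 for inhibitors, against 1.05. The cause was not tested. No paired analysis was possible because each stage has 1 sample and the labels give no replicate numbers. With 1 sample a stage, the number of samples rather than reads limits precision, and levels near 0, as for C7, carry no fold.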

Other observations

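The acute-phase list, plasma proteins that the liver makes more or less of in inflammation, was read in the runs of gestational days 140 to 150, since the late runs stood apart in fibrinogen. Of 17 listed genes, 13 had at least 50 CPM on average. In both late runs (cells 401 to 440 and 441 to 492) 6 of the 13 were above every earlier run (20.1% of all genes): ORM1, ITIH4, LBP, HPX, LCN2 and CP. HPX, the haem scavenger hemopexin, measured 79.1 to 337 CPM in the earlier runs and 856 and 932 CPM in the late ones. ITIH4, a heavy chain of the inter-alpha-trypsin inhibitors, measured 543 to 906 CPM and then 1929 and 2237 CPM. Below every earlier run were 3 genes, CRP, AHSG and TTR, a smaller share than the 34.4% of all genes. TTR, transthyretin, measured 14866 to 25754 CPM and then 6875 and 4213 CPM. These genes were read after the data had been seen, with no test.

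ORM1, chosen after its values were seen, differed widely between stages and between runs. Its level by stage was 1885 CPM in the virgin sample, 9781 CPM on lactation day 7 and 115 CPM on day 15. In gestation it was 328 CPM at days 40 to 50, 4730 CPM at days 50 to 70 and 50.1 CPM at days 70 to 80. Later it was 327 CPM at days 90 to 100, 142 CPM at days 100 to 120 and 7818 CPM at days 140 to 150. At days 140 to 150 the run median of ORM1 was 40.8 CPM. Its runs spanned 55.7 to 13164 CPM at days 50 to 70 and 18.4 to 39468 CPM at days 140 to 150, and stayed within 5609 to 13311 CPM on lactation day 7 and within 75.8 to 228 CPM on day 15. C3 was high on lactation day 7, where ORM1 was high in each run, and stood below every earlier run in the late runs of days 140 to 150, at 2877 and 2813 CPM. Fibrinogen differed from C3 in those late runs, with a sum of 81286 and 85779 CPM. Its runs of day 7, at 26341 to 38083 CPM, overlapped the earlier runs of days 140 to 150, at 27496 to 47385 CPM.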
